A study of Mus musculus with 18 samples.

Results

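The lecticans, link proteins and tenascins of the perineuronal matrix were followed in mouse spinal cord over the first days after birth. The set holds 9 genes, found by gene symbol among 58570 gene loci: the lecticans Acan, Bcan, Ncan and Vcan, the link proteins Hapln1, Hapln2 and Hapln4, and the tenascins Tnc and Tnr. All 9 were found, 7 under their own symbol alone and 2 joined with another symbol, Hapln2 with Apoa1bp and Tnr with Gm10530. Ncan and Hapln4 were listed with the same deposited span (chr8:70083457-70120873), though each had values of its own. The mice were of the SMNΔ7 line, a model of spinal muscular atrophy (SMA), the motor neuron disease caused by loss of SMN protein. The labels give homozygotes as the SMA group and heterozygotes as the controls. As background, the allele concerned is a disrupted mouse Smn1, and in this line human SMN transgenes are present on top of the mouse allele, and the labels name no wild-type group. Whole cords were collected on postnatal day 2, 6 or 10 (P2, P6, P10), which gives 6 groups with 3 libraries in each (18 in total), and total RNA was sequenced with a stranded kit after removal of ribosomal RNA.

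Lecticans are chondroitin sulfate proteoglycans that bind the sugar polymer hyaluronan at one end and tenascins at the other. Link proteins hold the lectican on the hyaluronan, and tenascin-R joins lecticans to one another, so the 3 families form a lattice around neurons, at nodes of Ranvier and between glia. In the cord this matrix passes after birth from a loose juvenile form to dense nets that surround motor neurons and other large neurons, a transition linked to the end of juvenile plasticity. The comparisons ask how the members change over these ages and whether SMA cords differ from controls.

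The deposited values are 1 FPKM per group (fragments per kilobase of transcript, scaled to depth) with a model interval, so no spread between cords was held. Estimated fragments per group ranged from 6881671 to 7386338. Smn1, the gene that marks the genotype, was FPKM 2.70, 4.46 and 3.54 in controls at P2, P6 and P10. In SMA it was 0.0210 at P2 and listed at 0 at P6, but 2.82 at P10, which is 79.8% of the control value. The group labelled SMA at P10 thus went against its label, and values at P2 and P6 do not use it. The summed FPKM of 10 of 10 mature oligodendrocyte markers (led by Mbp) was 288, 1940 and 8099 in controls by age, against 3694, 2179 and 4525 in SMA. The SMA sum at P2 thus stood above those of SMA and control at P6, against the order of the ages. Genotype and a difference in maturity between the 2 groups at P2 cannot be told apart here. The part of these cells in the differences between groups was not tested.

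Each lectican gene has a link protein gene next to it in the mouse genome (GRCm38, GENCODE M21), with 0 protein-coding genes between the partners in each of the 4 pairs. Ncan (chr8:70093085-70120873, minus strand) and Hapln4 (chr8:70083457-70090862, plus strand) lie 2222 bases apart. Bcan (chr3:87987531-88000230) and Hapln2 (chr3:88021750-88027583) are both on the minus strand, 21.5 kb apart. Vcan (chr13:89655312-89742509, minus strand) and Hapln1 (chr13:89539796-89611652, plus strand) are 43.7 kb apart, and Acan (chr7:79053483-79115099, plus strand) ends 2 bases from Hapln3, a link protein outside the set. Tnc (chr4:63959785-64047015, minus strand) and Tnr (chr1:159523769-159931729, plus strand) lie on other chromosomes.

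Promoter sequences are shown for the 5 members with the greatest control difference from P2 to P10 by value among those with a window, although Hapln1 alone was called: Hapln1, Acan, Tnr and Bcan were highest at P10 and Tnc was lowest there. Each run is the 250 bases before the RefSeq start (GRCm38.p6; for Tnc the upstream of 2 starts), read 5′ to 3′ along the gene. Capitals mark any match, on either strand, to 5 motifs. The TATA box was searched as TATAAA and the GC box as GGGCGG. The E-box bound by many basic helix-loop-helix factors was searched as CAGCTG. The NFI motif of glial genes was searched as TTGGCA, and the SOX-type motif as ACAAAG. Matches overlap only in the Acan window, where 2 GC boxes do.
Hapln1 (chr13:89540386-89540635, plus strand): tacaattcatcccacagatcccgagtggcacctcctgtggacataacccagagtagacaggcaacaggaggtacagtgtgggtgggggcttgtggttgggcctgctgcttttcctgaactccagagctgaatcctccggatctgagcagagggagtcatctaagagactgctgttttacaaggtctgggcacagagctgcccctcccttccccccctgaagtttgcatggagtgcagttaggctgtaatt
Acan (chr7:79052976-79053225, plus strand): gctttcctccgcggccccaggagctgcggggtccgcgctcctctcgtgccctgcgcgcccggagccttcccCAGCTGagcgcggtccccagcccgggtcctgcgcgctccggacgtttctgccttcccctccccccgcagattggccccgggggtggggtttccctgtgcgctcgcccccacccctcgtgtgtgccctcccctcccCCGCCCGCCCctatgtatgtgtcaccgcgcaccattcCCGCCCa
Tnr (chr1:159523519-159523768, plus strand): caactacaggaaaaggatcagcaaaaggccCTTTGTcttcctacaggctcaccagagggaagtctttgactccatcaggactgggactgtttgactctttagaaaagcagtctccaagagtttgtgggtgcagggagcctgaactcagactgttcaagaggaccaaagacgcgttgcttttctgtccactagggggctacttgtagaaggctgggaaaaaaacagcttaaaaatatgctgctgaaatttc
Bcan (chr3:88000357-88000606, minus strand): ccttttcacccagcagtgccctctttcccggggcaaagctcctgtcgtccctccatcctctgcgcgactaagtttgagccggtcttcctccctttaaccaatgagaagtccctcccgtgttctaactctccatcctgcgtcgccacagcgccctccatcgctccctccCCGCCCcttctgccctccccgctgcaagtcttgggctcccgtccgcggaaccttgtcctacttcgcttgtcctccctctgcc
Tnc (chr4:64047016-64047265, minus strand): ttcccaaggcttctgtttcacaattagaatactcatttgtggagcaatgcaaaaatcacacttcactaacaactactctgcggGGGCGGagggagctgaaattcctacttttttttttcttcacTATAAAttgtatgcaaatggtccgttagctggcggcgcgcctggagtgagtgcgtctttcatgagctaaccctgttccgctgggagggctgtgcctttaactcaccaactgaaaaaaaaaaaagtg
The Hapln1 window held 0 matches and 2 CpG dinucleotides, the Tnr window held 1 SOX-type match and 2 CpG dinucleotides, and the Bcan window held 1 GC box match and 16 CpG dinucleotides. The Acan window held 3 GC boxes, 1 E-box and 26 CpG dinucleotides. The Tnc window held 1 TATA box and 1 GC box match, with 8 CpG dinucleotides; the median over all windows was 6. Of 32851 promoter windows of this length, 12.4% held the TATA box, 32.7% the GC box, 13.0% the E-box, 12.3% the NFI motif and 16.5% the SOX-type motif. A match is a run of letters and says nothing of binding. Windows were found for 8 of the 9 members, all but Hapln4.

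Among the lecticans, neurocan and brevican gave most of the transcript, with Ncan the higher by value in control cord at P2 and P6 and Bcan the higher at P10. Ncan, which encodes neurocan, the lectican of the juvenile nervous system, was FPKM 74.4, 67.8 and 61.0 in controls at P2, P6 and P10, and 70.2, 64.9 and 62.3 in SMA. Its 6 values lay within a factor of 1.22, and each deposited interval reached 46.0% to 48.3% above the FPKM. Bcan encodes brevican, a short lectican made by glia that is typical of adult nets and nodes. Its FPKM was 44.6, 56.2 and 89.0 in controls and 66.1, 60.9 and 63.8 in SMA. The lowest and the highest Bcan values were thus both control values, at P2 and P10, while the SMA values stayed between them.

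Vcan, the versican gene, whose product lies in early pathways and at nodes, was FPKM 19.8, 24.6 and 24.5 in controls and 21.9, 22.5 and 24.99 in SMA. These values lay within a factor of 1.26 and the upper bounds were 93.0% to 107% above the FPKM, so no difference in Vcan was detectable. Acan encodes aggrecan, the large lectican of cartilage and of the perineuronal nets themselves. It was the scarcest member in every group, at FPKM 0.630, 0.974 and 1.93 in controls and 1.23, 1.07 and 1.40 in SMA. The estimated fragments behind these were 52.4, 81.4 and 156 in controls and 90.9, 75.3 and 105 in SMA. Of the summed lectican FPKM in control cord, Ncan made up 53.4% at P2 and 34.6% at P10, while Bcan made up 32.0% and 50.5%. In SMA cord Ncan was 44.0%, 43.4% and 40.8% by age, and Bcan 41.4%, 40.8% and 41.9%.

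Hapln1 was the member with the steepest change, and the single member called in any comparison. It encodes the cartilage link protein, which in the nervous system is made by net-bearing neurons and ties aggrecan and other lecticans to hyaluronan. Its FPKM in controls was 1.53 (interval 0.637 to 2.42) at P2, 4.50 (2.43 to 6.57) at P6 and 9.99 (6.02 to 14.0) at P10. In SMA it was 4.51 (2.26 to 6.77), 4.58 (2.52 to 6.64) and 6.54 (3.56 to 9.52). The control intervals at P2 and P10 did not overlap. The SMA group at P2 stood at the level of both P6 groups, and its interval overlapped that of the control at P2 only narrowly.

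Hapln4 encodes a link protein of inhibitory synapses and brainstem nets, often described as the partner of brevican. Its FPKM was 2.01, 4.02 and 9.34 in controls and 3.89, 3.92 and 5.25 in SMA. The lowest and the highest value were again control P2 and control P10, but the interval reached 202% to 710% above the FPKM and its lower bound was 0 in 6 of 6 groups. With such intervals, no change in Hapln4 was detectable. Its estimated fragments were 49.7 to 267 per group. Those of Hapln1 were 58.5 to 362, with upper bounds only 39.7% to 58.4% above the FPKM. Hapln4 shares its deposited span with Ncan, and the part of this in its wide intervals was not tested.

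Hapln2 encodes the link protein of nodes of Ranvier, made by oligodendrocytes. Its locus is joined with Apoa1bp (Naxe), a housekeeping gene whose product repairs a cofactor, so the value is not that of Hapln2 alone. The FPKM of the joined locus was 23.1, 21.7 and 23.7 in controls and 22.4, 19.8 and 20.3 in SMA, a flat series. The estimated fragments were not flat: 156, 184 and 364 in controls and 254, 174 and 246 in SMA. The ratio of FPKM to estimated fragments ranged over a factor of 2.28 among groups at this locus, against 1.06 to 1.25 at the other 8 members. The share of each gene in this locus cannot be told apart, and Hapln2 is given as a level of the joined locus throughout.

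The control values of the 2 tenascins stood in opposite order with age. Tnc encodes tenascin-C, a glycoprotein of immature astrocytes, radial glia and injured tissue. It was FPKM 30.7, 19.6 and 11.1 in controls and 23.4, 16.2 and 17.8 in SMA, with upper bounds 46.0% to 56.1% above. Tnr encodes tenascin-R, made by oligodendrocytes and some neurons, which cross-links lecticans in nets. It was FPKM 14.8, 23.4 and 41.6 in controls and 24.7, 26.9 and 29.0 in SMA, and these values include the overlapping noncoding transcript Gm10530. The upper bounds of Tnr were 85.3% to 114% above the FPKM, and its FPKM intervals overlapped within each genotype. The model standard deviation of its estimated fragments was narrower, with 1391 ± 281 at P2 and 3961 ± 899 at P10 in controls (SD of the deposited model). For both tenascins the 2 extreme values were control P2 and control P10.

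**Figure D1:**
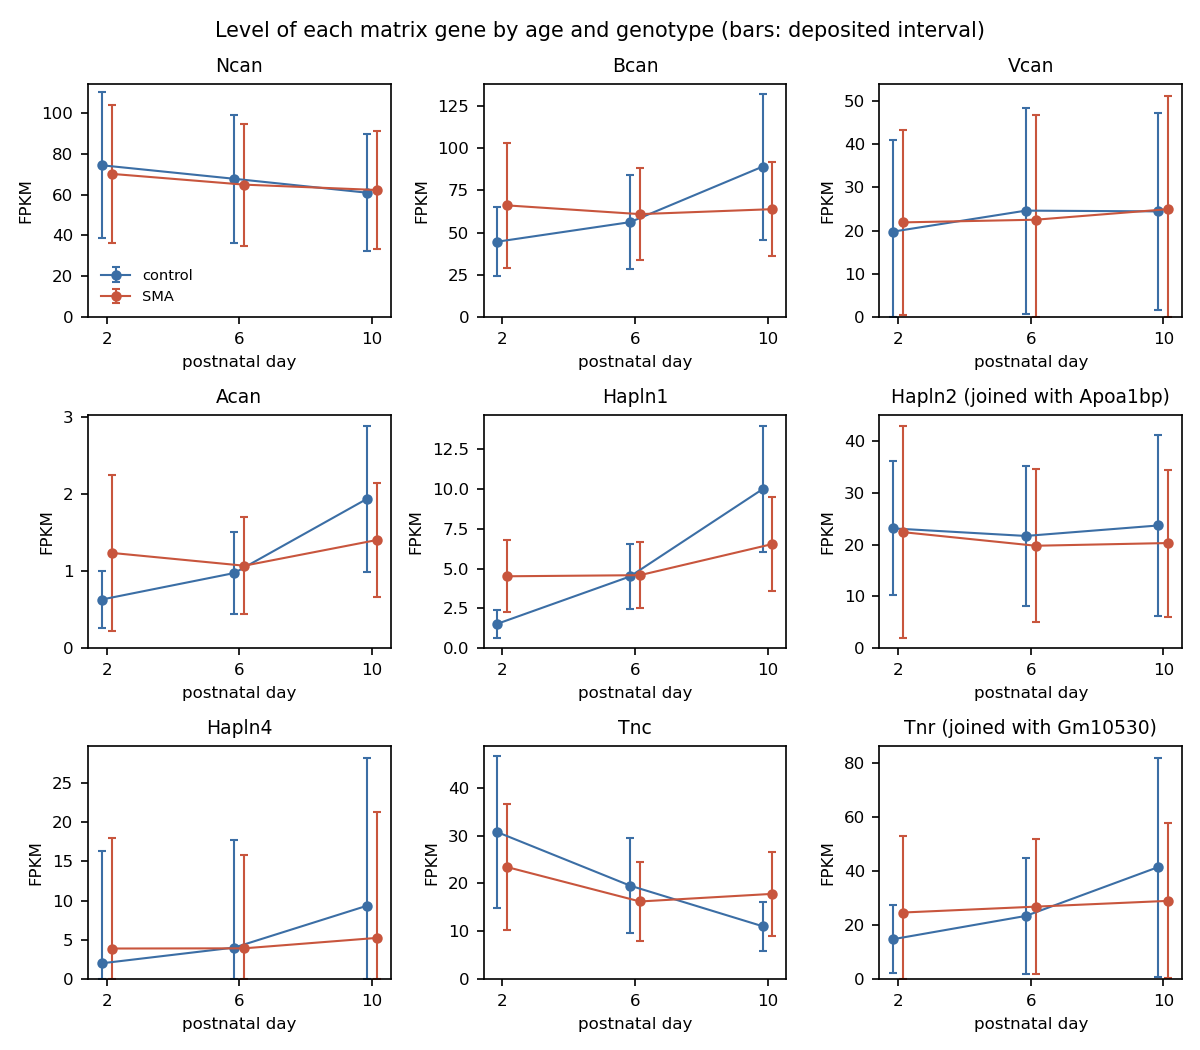
FPKM (vertical axis, linear, from 0) of each of the 9 genes at postnatal days 2, 6 and 10 (horizontal axis), in control (blue) and SMA (red) groups; points are the deposited group values and bars the deposited interval. Hapln1 goes from 1.53 to 9.99 in controls and from 4.51 to 6.54 in SMA, Tnc goes from 30.7 to 11.1 in controls, and the bars of Hapln4, Vcan and Tnr are wide.

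Change with age in control cord was tested on the log2 FPKM ratio with a z test (two-sided), whose standard error comes from the upper bound, with p-values adjusted over all loci tested (Benjamini-Hochberg). Hapln1 rose from P2 to P10, 6.53-fold, a log2 ratio of 2.71 ± 0.52 (SE, adjusted p = 8.61e-05). It was the 1 member called higher of 9 tested, where 0.546% of 19956 loci were called higher; none of the 9 was called lower (0.0852% of loci). From the estimated fragments Hapln1 was at 2.63 and was again the 1 member called, where 1.08% of loci were. By that measure 6 members had an unadjusted p under 0.05, against 5.11% of loci, and Tnr, at 1.51, just missed the threshold (adjusted p = 0.0520). The next members by size were not called. Acan had a ratio of 1.62 ± 0.57 (adjusted p = 0.325), Tnc -1.47 ± 0.51 (adjusted p = 0.307), Tnr 1.49 ± 0.95 and Bcan 1.00 ± 0.49. Unadjusted p-values were under 0.05 for 4 members, Hapln1, Acan, Tnc and Bcan, against 3.51% of loci. Hapln4 had a ratio of 2.22 ± 5.43, Vcan 0.31 ± 1.05, the Hapln2 locus 0.04 ± 0.68 and Ncan -0.29 ± 0.50. The median over the 9 members was 1.00, against 0.02 over all loci tested.

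Control values of 5 members, Acan, Bcan, Hapln1, Hapln4 and Tnr, stood in ascending order from P2 through P6 to P10, as did 27.3% of all loci. Those of Ncan and Tnc stood in descending order, as did 24.5% of loci. Taken in steps, Hapln1 had log2 ratios of 1.56 ± 0.55 from P2 to P6 and 1.15 ± 0.45 from P6 to P10. Neither step passed the adjusted threshold, with 0 of 8 members called in the earlier step (0.112% of loci; Acan was under FPKM 1 at both ages) and 0 of 9 in the later (0.0751%). At an unadjusted p under 0.05, Hapln1 was the 1 member in each step by FPKM, against 0.637% and 1.12% of loci. From the estimated fragments none was called in either step (0.0612% and 0.0701% of loci), and 1 and 2 members had such a p (0.775% and 1.56% of loci). For the later step Acan was at 0.99 ± 0.54, Tnr 0.83 ± 0.99, Tnc -0.82 ± 0.51 and Bcan 0.66 ± 0.51.

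In SMA cord the same span of ages gave ratios nearer to 0 for Hapln1, Tnc, Tnr, Acan and Bcan. From P2 to P10 the log2 ratio was 0.54 ± 0.50 for Hapln1, -0.39 ± 0.55 for Tnc, 0.23 ± 1.11 for Tnr, 0.18 ± 0.72 for Acan and -0.05 ± 0.52 for Bcan. By the z test 0 of 9 members were called (0.0602% of loci) and 0 had an unadjusted p under 0.05 (0.331%). From the estimated fragments the member counts were also 0 and 0 (0.01% of loci called, 0.216% with such a p). This contrast includes the group labelled SMA at P10, whose Smn1 was near the control level. The difference between the genotypes in the change from P2 to P10 was itself tested. For Hapln1 it was -2.17 ± 0.72 (95% interval -3.58 to -0.76, unadjusted p = 0.00255, adjusted p = 1.00), the 1 member of 9 with an unadjusted p under 0.05, against 0.894% of loci. For Acan it was -1.44 ± 0.91, for Tnr -1.26 ± 1.47, for Bcan -1.05 ± 0.72 and for Tnc 1.08 ± 0.75. By the z test 0 of 9 were called (0.0574% of loci). The estimated fragments also gave 0 (0.11% of loci), with 1 unadjusted p under 0.05 (1.39%).

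SMA and control cords were then compared at each age. At P2, Hapln1 was FPKM 4.51 in SMA and 1.53 in control, a log2 ratio of 1.56 ± 0.57 (95% interval 0.45 to 2.67, unadjusted p = 0.00578, adjusted p = 1.00). Acan was 1.23 and 0.630 (0.97 ± 0.74), Tnr 24.7 and 14.8 (0.74 ± 1.05), Bcan 66.1 and 44.6 (0.57 ± 0.53) and Tnc 23.4 and 30.7 (-0.39 ± 0.56). Of the 9 members, 6 had the higher value in SMA, as did 49.0% of all loci tested. By the z test 0 of 9 were called and 1 had an unadjusted p under 0.05, Hapln1, where 0.126% of loci were called and 0.743% had such a p. From the estimated fragments the member counts were the same, 0 and 1 (0.105% of loci called, 0.963% with such a p). All 10 cartilage markers and all 10 mature oligodendrocyte markers also had the higher FPKM in SMA at P2. So did 8 of 8 astrocyte, 4 of 4 oligodendrocyte precursor, 5 of 5 microglial and 4 of 4 endothelial markers. Tendon and muscle (6 of 6) and Schwann cell markers (3 of 3) did as well. The counts were 0 of 3 for immature glia, 2 of 7 for motor neurons, 2 of 3 for inhibitory and 1 of 3 for excitatory neurons. They were 2 of 6 for fibroblasts and meninges and 1 of 5 for sensory ganglion neurons. The part of these cells and tissues in the values of Acan, Hapln1 and the other members was not tested. The median log2 ratio of the members was 0.57, against -0.01 over all loci.

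At P6, where Smn1 was listed at 0 in SMA, the genotypes lay close. The greatest difference in size was that of Tnc, FPKM 16.2 in SMA and 19.6 in control, a log2 ratio of -0.27 ± 0.53. Hapln1 was 4.58 and 4.50, a ratio of 0.03 ± 0.47 with a 95% interval of -0.90 to 0.95. Tnr was at 0.20 ± 0.96, Acan at 0.13 ± 0.59, Bcan at 0.12 ± 0.49 and Ncan at -0.06 ± 0.48. By the z test 0 of 9 members were called (0.0458% of loci) and 0 had an unadjusted p under 0.05 (0.168%), the smallest being 0.615. From the estimated fragments the member counts were 0 and 0 (0% of loci called, 0.0408% with such a p).

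At P10 the group labelled SMA had Smn1 at FPKM 2.82, against 3.54 in control, so it went against its label. Differences at this age are thus given by label only. Hapln1, Bcan, Tnr and Acan had the lower value in the group labelled SMA and Tnc the higher. Hapln1 was FPKM 6.54 in SMA and 9.99 in control (-0.61 ± 0.44), Bcan 63.8 and 89.0 (-0.48 ± 0.48), Tnr 29.0 and 41.6 (-0.52 ± 1.02), Acan 1.40 and 1.93 (-0.46 ± 0.53) and Tnc 17.8 and 11.1 (0.69 ± 0.50). Of the 9 members, 3 had the higher value in SMA, namely Tnc, Ncan and Vcan, as did 55.6% of all loci tested. By the z test 0 of 9 were called (0.0397% of loci) and 0 had an unadjusted p under 0.05 (0.213%), the smallest being 0.167. Those from the estimated fragments were 0 and 0 as well (0% of loci called, 0.144% with such a p). The members' median was -0.46, against 0.04 over all loci.

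**Figure D2:**
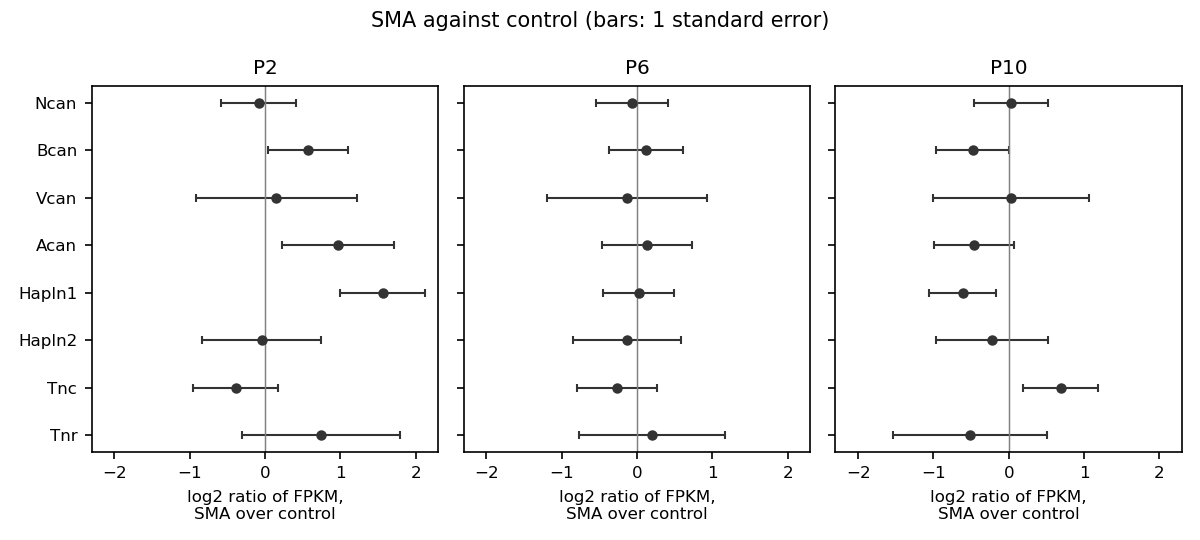
Log2 ratio of FPKM, SMA over control (horizontal axis), for 8 of the genes at P2, P6 and P10 (panels); points are ratios of deposited group values and bars 1 standard error from the deposited interval. Hapln1 is at 1.56 at P2, 0.03 at P6 and -0.61 at P10. Hapln4, whose standard error is 2.70 or more, is not drawn. Smn1 in the group labelled SMA at P10 was near the control level.

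The same 2 control groups enter both the age and the genotype comparisons, so the values are set side by side here rather than related to each other. On the log2 scale, with control P2 as 0% and control P10 as 100%, Hapln1 in SMA was at 57.7%, 58.5% and 77.4% by age, while control P6 was at 57.5%. Bcan was at 56.8%, 45.1% and 51.9% in the SMA groups, Tnr at 49.6%, 57.7% and 65.2%, Acan at 60.0%, 47.1% and 71.3%, and Tnc at 26.6%, 62.4% and 53.3%. The median of 838 loci that had FPKM 5 or more and a control change of at least 1 on the log2 scale was 48.5%, 45.6% and 66.1% in the same groups, and that of 10 mature oligodendrocyte markers 77.9%, 59.6% and 85.3%. Of the 7 members with a higher control value at P10 than at P2, 5 had a higher value in SMA at P2 and a lower one at P10, against 51% of such loci. Of the 2 with a lower control value at P10, 2 had the mirrored order, against 60.9%. With 7 and 2 members, these counts are not read as a difference from the background.

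A fit across the 3 ages, limma on log2(FPKM + 1) with age as a factor, gave no call among the members (0.00455% of 21960 loci were called; 0 of 9 members had an unadjusted p under 0.05, against 2.05% of loci). The fit takes the group labelled SMA at P10 as SMA, though its Smn1 was near the control level. SMA minus control was 0.20 ± 0.31 for Hapln1, 0.13 ± 0.23 for Tnr, 0.07 ± 0.20 for Bcan, 0.08 ± 0.18 for Acan and 0.00 ± 0.21 for Tnc. The joined Hapln2 locus was lower in SMA at 3 of 3 ages, at -0.13 ± 0.09 (adjusted p = 0.999), and 6.79% of loci were lower at every age. This order holds for FPKM, since its estimated fragments at P2 were higher in SMA (254 against 156, a log2 ratio of 0.71). No member was higher in SMA at all 3 ages, against 11.7% of loci. Without P2 the sign turned for Hapln1 (-0.26), Bcan (-0.18), Acan (-0.11) and Tnr (-0.16), and without P10 Tnc was at -0.32.

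Because FPKM is scaled to length, levels of different members can be compared within a group, except that a joined locus is not 1 transcript. The Tnr value is that of the locus joined with Gm10530. The ratio of Tnr to Tnc was 0.482 in control at P2, 1.20 at P6 and 3.76 at P10, that is from -1.05 ± 0.73 to 1.91 ± 0.79 on the log2 scale. In SMA it was 1.05, 1.65 and 1.63. By value, Tnc thus stood above the joined Tnr locus only in control cord at P2. The ratio of Bcan to Ncan was 0.599, 0.828 and 1.46 in control and 0.941, 0.938 and 1.02 in SMA. Hapln1 was 0.0773, 0.183 and 0.408 of its genomic neighbour Vcan in control, and 0.206, 0.203 and 0.262 in SMA. Each standard error of this last ratio was 0.74 or more on the log2 scale. The errors of these ratios come from the deposited intervals and treat both genes as independent.

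**Figure D3:**
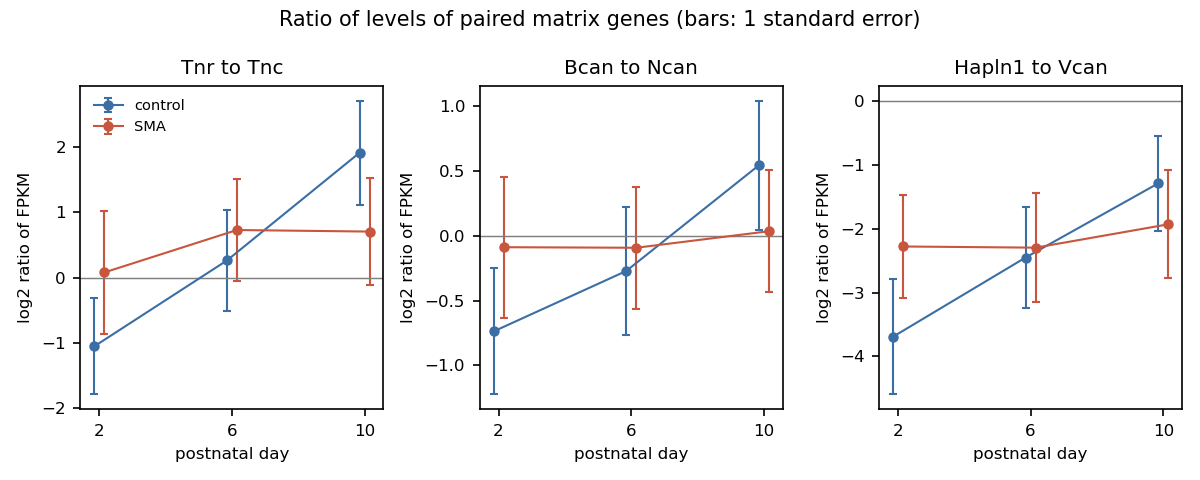
Log2 ratio of FPKM (vertical axis) of Tnr to Tnc, Bcan to Ncan and Hapln1 to Vcan at postnatal days 2, 6 and 10 (horizontal axis), in control (blue) and SMA (red) groups; bars are 1 standard error from the deposited intervals. The control ratio of Tnr to Tnc goes from -1.05 to 1.91 and the SMA ratio from 0.08 to 0.70.

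In the order of levels, Ncan was highest and Acan lowest in control at P2, followed from the top by Bcan at FPKM 44.6, Tnc at 30.7, the Hapln2 locus at 23.1, Vcan at 19.8, Tnr at 14.8, Hapln4 at 2.01 and Hapln1 at 1.53. In control at P10 Bcan stood highest, then Ncan at 61.0, Tnr at 41.6, Vcan at 24.5, the Hapln2 locus at 23.7, Tnc at 11.1, Hapln1 at 9.99 and Hapln4 at 9.34. In all 6 groups, neighbours in the order had overlapping intervals, except Tnc over Hapln1 at P6 in both genotypes. Tnc and Tnr changed rank most between the 2 control lists.

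The genes whose 6 group values were most like those of a member were found by the root mean square difference of centred log2(FPKM + 1) over the 6 groups. Nearest to Hapln1 was Nfasc, the node and paranode adhesion protein neurofascin, at a difference of 0.0542 (FPKM 29.1, 66.2 and 129 in controls and 69.6, 64.2 and 84.6 in SMA), followed by Clu at 0.0758 and the oligodendrocyte precursor gene Gpr17 at 0.0827. Nearest to Tnr were Clic4 at 0.0210, Col9a3 at 0.0374 and Nde1 at 0.0504. Nearest to Tnc was Zfp57, an imprinting regulator, at 0.0696 (FPKM 24.8, 14.0 and 7.74 in controls and 18.9, 12.9 and 13.8 in SMA), then Mex3a and Zfp558. Bcan lay nearest to Dhcr7, an enzyme of cholesterol synthesis, Rab31 and Npc2, Acan to Tgfa, Pik3r3 and Npc1, and Hapln4 to Matn4, Sox10 and Cd82. The members with the narrowest range of values had many more near genes: Ncan lay nearest to Hnrnph1, Traf3ip2 and Tmem132e, with 1376 genes under 0.1, Vcan to Ercc6l2, Ipo8 and Tbl1xr1, with 664, and the Hapln2 locus to Samhd1, Ncstn and Pcsk1n, with 543. For Hapln1 there were 8 genes under 0.1 and for Tnc 3. The 1 added to FPKM narrows the changes of scarce members such as Acan and Hapln1, while the genes compared had FPKM 5 or more in a group. A near gene thus need not have the same fold change. In controls at P2 and P10, Acan was at FPKM 0.630 and 1.93 and Tgfa at 6.62 and 12.2. With 6 values shared by all genes, such likeness is a description.

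Other genes of the matrix were read from 7 lists. Over all of them, 0 of 60 genes tested were called from P2 to P10 in control cord (0.631% of loci in either direction), and 6 had an unadjusted p under 0.05 (3.51% of loci). With the estimated fragments 0 were called (1.08% of loci) and 9 had such a p (5.11%). Among proteases and inhibitors the highest ratio was that of Adamts4, an aggrecanase that cleaves lecticans and is made by oligodendrocytes. Its FPKM was 1.03, 7.75 and 24.1 in controls and 10.1, 6.99 and 13.3 in SMA, a control ratio of 4.54 ± 1.36 (adjusted p = 0.109). Adamts15 was at -0.33, and the abundant inhibitors Timp2 and Timp3 were at 0.14 and -0.22. The list's median was 0.11, with 7 of 11 genes higher in value at P10, as were 51.8% of all loci tested.

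Genes of net-bearing fast-spiking neurons and of net ligands had a median of 0.44 over 7 genes. Pvalb, the calcium buffer parvalbumin, was FPKM 0.576, 2.40 and 4.73 in controls and 3.34, 2.52 and 3.30 in SMA, a control ratio of 3.04 ± 1.06 (adjusted p = 0.319). Kcnc1, a fast potassium channel, was at 0.63, Sema3a, a guidance protein held in nets, at -0.48 and Nptx2, a secreted pentraxin, at -0.90. Otx2, a transcription factor taken up by nets in cortex, was listed at 0 in 6 of 6 groups.

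The sulfation list had a median of 0.19 over 8 genes. Chst3, which adds sulfate at the carbon that marks juvenile, permissive matrix, was FPKM 1.11, 1.40 and 2.75 in controls and 1.98, 1.55 and 1.88 in SMA (control ratio 1.31 ± 0.55). Ust, the uronyl sulfotransferase, was at 1.04 ± 0.44, Dsel at -0.14 and Chst15 at -0.50. Chain synthesis genes had a median of 0.06 over 11 genes, from Chsy1 at -0.83 to Xylt1 at 0.75, with the abundant B3gat3 and Fam20b at 0.06 and 0.07. Hyaluronan genes had a median of 0.10 over 7 genes, from Lyve1, a hyaluronan receptor of lymphatic and perivascular cells, at -1.43 ± 0.73 to the synthase Has1 at 0.61, with the hyaluronidase Hyal2 at -0.32. Receptors had a median of -0.15 over 9 genes, from the Nogo receptor Rtn4r at -0.71 to the tenascin-binding integrin Itga9 at 0.88, with Cntn1, a tenascin-R ligand, at 0.09 and Ptprs, a chondroitin sulfate receptor, at -0.25. Relatives had a median of 0.24 over 7 genes, from Hapln3 at -0.49 to Bgn at 0.85, with Ptprz1 and Cspg5 at 0.19 and -0.47.

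**Figure D4:**
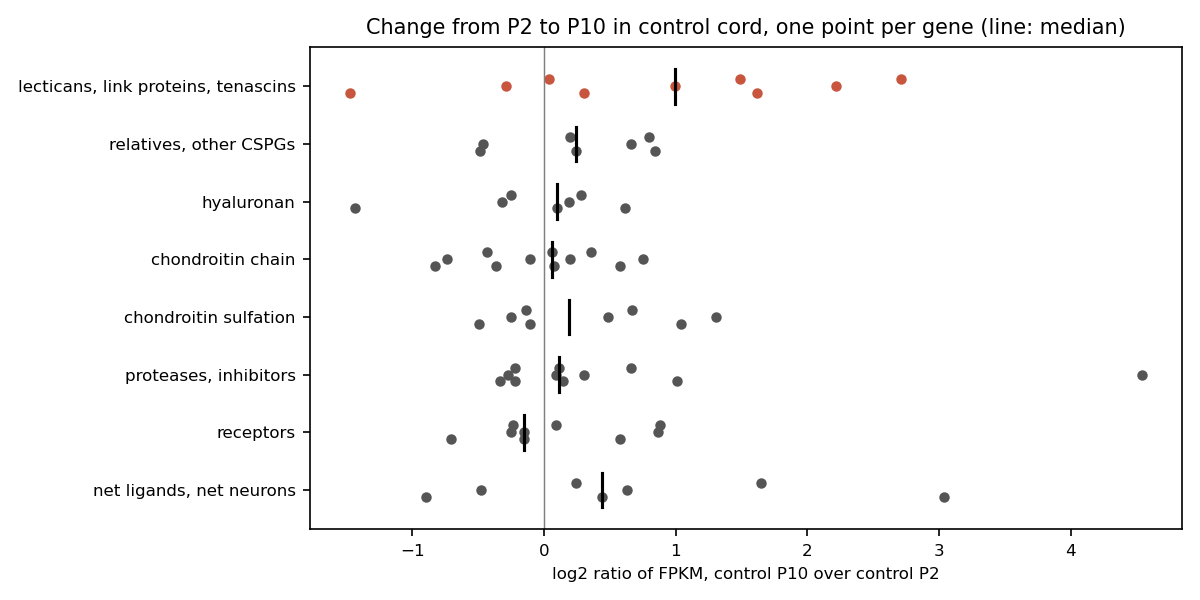
Log2 ratio of FPKM, control P10 over control P2 (horizontal axis), for the 9 matrix genes (red) and 7 lists of related genes (grey), 1 point per gene; black lines are medians. The 9 genes have a median of 1.00 and the other lists lie between -0.15 and 0.44, with Adamts4 at 4.54 and Pvalb at 3.04 as the outlying points.

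Between SMA and control, the z test called 0 of 58 genes of these lists at P2, and likewise 0 of 60 at P6 and 0 of 58 at P10 (0.126%, 0.0458% and 0.0397% of loci). Unadjusted p-values under 0.05 numbered 2, 0 and 0 (0.743%, 0.168% and 0.213% of loci). The estimated fragments gave no call either, with 2, 0 and 1 such p-values (0.963%, 0.0408% and 0.144% of loci). Those at P2 were Adamts4, with a log2 ratio of 3.29 ± 1.62, and Pvalb, with 2.54 ± 1.14. At P6 they were at -0.15 and 0.07, and at P10 at -0.85 ± 0.92 and -0.52 ± 0.72. Smn1 in the group labelled SMA at P10 was near the control level.

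The other genes named for this comparison had the greatest or the smallest ratio of their own list at P2 or P10, ties to 2 decimals included, and are given at P2, P6 and P10 in turn. Among sulfation genes Chst3 was at 0.83, 0.15 and -0.55, Ust at 0.43, 0.13 and -0.66, Chst15 at -0.20, 0.12 and 0.14 and Dsel at -0.17, 0.12 and 0.31. Among relatives Cspg4, a proteoglycan of oligodendrocyte precursors, was at 0.55, 0.33 and -0.38, the collagen-binding proteoglycan Dcn at -0.31, 0.03 and -0.99 and Cspg5 at -0.20, 0.15 and 0.23. Among chain synthesis genes Xylt1 was at 0.54, -0.10 and 0.09, B3galt6 at -0.24, 0.10 and 0.11, Csgalnact1 at 0.14, -0.03 and -0.21, Xylt2 at -0.04, 0.11 and -0.21 and Chsy1 at -0.11, -0.14 and 0.24. Among receptors Itgav was at 0.53, 0.12 and -0.36, Rtn4r at -0.30, 0.21 and 0.16, Itga9 at 0.49, 0.09 and -0.59 and Itga8 at 0.09, -0.09 and 0.37. Among hyaluronan genes Cd44, a hyaluronan receptor, was at 0.05, 0.41 and -0.10, Cemip at -0.31, -0.01 and 0.09, Has3 at -0.14, -0.32 and -0.11 and Hyal2 at -0.20, -0.08 and 0.48. Adamts15 was at -0.46, -0.02 and 0.27, Nptx2 at -0.25, 0.33 and 0.32 and Sema3a at -0.21, -0.09 and 0.32. None of these ratios was called.

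Markers of the cell types that can make these genes also differed by value between the groups; in bulk RNA, fewer cells of a type and less RNA per cell cannot be told apart. Summed FPKM of 8 of 8 astrocyte markers, led by Aldoc and Gfap, was 450, 688 and 1090 in controls and 792, 773 and 847 in SMA. In controls Aldoc, Gfap, Aqp4, Slc1a2, Gja1 and S100b were higher at P10 than at P2. Slc1a3 was at 61.3, 55.1 and 43.5 by age and Aldh1l1 at 15.7, 16.2 and 15.4. For 4 of 6 oligodendrocyte precursor markers, led by Gpr17 and Pdgfra, it was 41.6, 72.9 and 121 in controls and 67.3, 74.6 and 84.8 in SMA. Immature glia markers (3 of 3, led by Fabp7 and Vim) were at 449, 415 and 234 in controls and 319, 375 and 330 in SMA. Most of this sum was Fabp7, at 383, 353 and 191 in controls, while Nes was at 3.02, 3.35 and 3.67. Inhibitory neuron markers (3 of 4, led by Gad1 and Gad2) were at 62.4, 64.4 and 63.3 in controls and 61.3, 68.6 and 72.4 in SMA, excitatory ones (3 of 3, led by Slc17a6) at 64.2, 53.3 and 47.4 and 56.5, 63.2 and 58.4, and motor neuron ones (7 of 7, led by Prph and Chodl) at 63.6, 61.1 and 64.4 and 50.3, 55.1 and 45.3. The motor neuron sum hides markers that went different ways. In controls by age Chat was at 1.31, 2.34 and 3.67 and Isl1 at 3.68, 2.34 and 1.67. At P2, 2 of the 7, Chat and Slc18a3, had the higher value in SMA. The part of these cells in the values of the matrix genes was not tested.

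Aggrecan, versican and Hapln1 are also made by cartilage, and tenascin-C by tendon and meninges, tissues that can adhere to a dissected cord. Summed FPKM of 10 of 10 cartilage markers was 23.1, 28.5 and 44.2 in controls and 38.1, 35.9 and 33.3 in SMA, led by Col9a3 and Col11a2. In controls Col9a3 (7.24 at P2, 22.0 at P10), Col11a2 (5.59, 12.7), Col9a1, Matn1 and Matn3 were higher at P10. Col9a2 (7.19, 5.67), Col2a1 (1.19, 1.10), Col10a1 (0.461, 0.433), Ucma (0.377, 0.249) and Comp were lower there. Over the 6 groups the cartilage collagen Col2a1 was between FPKM 0.828 and 2.41, with the highest value in SMA at P2. Comp, Matn1 and Matn3 were at or below 0.245 in every group. At P2, SMA and control cord had Col10a1 at 0.995 and 0.461 and Ucma at 0.787 and 0.377. Of the 10 markers, 10 had the higher value in SMA at P2, 9 at P6 and 4 at P10. Fibroblast and meningeal markers (6 of 6, led by Col1a2 and Igf2) were at 175, 208 and 211 in controls and 167, 241 and 121 in SMA, and tendon and muscle markers (6 of 6, led by Acta1 and Scx) at 10.5, 7.66 and 4.06 and 14.5, 8.31 and 3.83. Schwann cell markers (3 of 4, among them Prx) were at 32.1, 82.9 and 160 in controls and 40.8, 118 and 75.9 in SMA. Endothelial (4 of 4, led by Cldn5 and Flt1), microglial (5 of 6, among them P2ry12) and sensory ganglion (5 of 5, led by Isl2) sums ranged over 29.1 to 43.8, 43.9 to 59.2 and 1.00 to 5.88. The part of these tissues in the matrix values was not tested.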

How the data were processed

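RNA-seq of whole spinal cord was analysed from the authors' group tables. Per the submitters' processing notes, reads were processed with FastQC, Bowtie2 2.2.4, TopHat2 2.1.1, Picard, Cufflinks 2.2.1 and Cuffdiff on GRCm38; the annotation release, strand setting and normalization are not given in the sources used here. The deposited tables hold 1 FPKM per group and locus, with interval bounds, and expected counts estimated by Cuffdiff with a model variance, both by the authors; the 3 libraries of a group enter as a single value, so every error reflects the authors' model, not replicate cords.

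The comparison of groups was a z test (two-sided) on the log2 ratio of FPKM. The interval was read as 95%, so the standard error was the distance from the FPKM to its upper bound divided by 1.96. Loci tested had FPKM 1 or more in a compared group, FPKM above 0 in all and an OK status. P-values were adjusted by Benjamini-Hochberg over all loci tested, with 0.05 as the threshold for a call. The robust standard deviation of z was 0.269 to 0.474, narrower than a standard normal, so few loci were called. Genotype across ages was fitted with limma 3.58.1 (R 4.3.3) on log2(FPKM + 1), with 2 residual degrees of freedom. Both tests were run on simulated data with known changes. The z simulation drew noise as wide as the deposited intervals, and the limma simulation used a common spread and no age effect. Neither setting matches these data, so the runs check the code only. Other tools were matplotlib 3.10.9, scipy 1.17.1, pandas 2.3.3 and numpy 2.4.6 under Python 3.11.15.

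Symbols were matched exactly, also within joined names. Of a gene with several loci the most abundant was used, and list genes joined with another protein-coding symbol were left out. Named were all members and Smn1; of each list the 2 most abundant genes, called genes and the greatest and smallest ratio in SMA against control at P2 and P10 and in control P10 against P2; and the 3 genes most like each member. Some genes under this rule are not reported here. Other genes named, including Col2a1, Col10a1, Ucma, Comp, Matn1, Matn3 and Otx2, were chosen after their values were seen. The members and lists were chosen with earlier results of these data known. Coordinates are from GENCODE M21 and promoter sequences from RefSeq (GRCm38.p6). Alternatives used the expected counts, median ratio scaling, other filters and pseudocounts, the interval read as that of 1 library, fewer loci, and each age left out.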

Additional observations from a re-analysis of the deposited data

How the results depend on the processing

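No paired analysis was possible because the deposited tables hold 1 combined value per group, with no column per replicate; for the same reason no replicate could be left out. The 9 members gave 539 recomputed values, of which 514 kept direction and side of the threshold, 7 passed it newly and 18 changed sign; none lost a call, and all 145 recomputed list medians moved by less than the median standard error of the list's genes. Those that passed newly did so with the interval read as that of 1 library of 3 (Hapln1 in 4 comparisons beside P2 to P10 in control, and Acan, Bcan and Tnc in control from P2 to P10, for example Tnc at adjusted p = 4.39e-05 and Bcan at 0.0133); under this reading Hapln1 was called higher in SMA at P2 (adjusted p = 0.000513) and its change with age was called smaller in SMA (adjusted p = 7.6e-05).

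Signs that turned belonged to uncalled values, and the cause was not tested. From the counts, the SMA against control ratio was 0.71 for the Hapln2 locus at P2, -0.11 for Acan and -0.02 for Hapln1 at P6, and -0.01 for Ncan and -0.06 for Vcan at P10; the Hapln2 locus was at 0.24 from P2 to P6 in control and Vcan at -0.07 from P2 to P10 in SMA. With median ratio scaling Hapln1 was at -0.09 at P6, and across ages Vcan was at -0.04 and Tnc at -0.05. Across ages without P2, Acan was at -0.11, Bcan -0.18, Vcan -0.05, Hapln1 -0.26 and Tnr -0.16; without P10, Hapln4 was at 0.34 and Tnc at -0.32; with a pseudocount of 0.1 Hapln4 was at 0.02.

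Counts of called loci moved as follows, with the count as reported in parentheses. For SMA against control, the interval of 1 library gave 123 at P2 (24), 26 at P6 (9) and 22 at P10 (8), single named loci gave 6, 1 and 1, and the counts gave 0 at P6 and 0 at P10 (8 and 29 at an unadjusted p under 0.05). For control, the interval of 1 library gave 98 from P2 to P6 (22), 207 from P6 to P10 (15) and 920 from P2 to P10 (126), the counts 12 from P2 to P6 and 216 from P2 to P10, and single named loci 9 from P2 to P6. For SMA from P2 to P10 (12) these gave 44, 2 and 0 (12 at an unadjusted p under 0.05 for the last). For the difference in change (12), the interval of 1 library gave 163, the counts 23 and FPKM 5 or more 20. Across ages limma (1) called 5 without P2, 8 without P6, and 0 without P10, with no filter, with FPKM 5 or more, with median ratio scaling and with no trend (1198, 1319, 173, 439 and 544 at an unadjusted p under 0.05).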
